A study of Homo sapiens with 31 samples.

Results

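Input mRNA from SBP-eIF4A1 cells was compared between cells that had received a control siRNA and cells for which the labels give no siRNA. The libraries were chosen by their labelled group: 2 siControl input libraries and 2 SBP-eIF4A1 input libraries without siRNA, which together make 4 of the 31 libraries of the series. All 4 came from the HEK293 T-REx line, derived from human embryonic kidney and built for inducible transgenes, and all 4 carry the genotype label SBP-eIF4A1, the RNA helicase eIF4A1 with a streptavidin-binding peptide. The siControl cells were transfected for 72 h with Control siRNA, using the reagent TransIT-X2. No treatment is given for the other group. Libraries used beside them were 2 inputs of SBP-eIF4A1 cells after 72 h of LARP1 siRNA (siLARP1), 2 inputs of SBP-eIF4A2 cells without siRNA, and 2 RNA-seq libraries each of naive and EIF4A1 KO cells. Also used were the pulldown libraries, in which the tagged protein was captured on streptavidin beads, and ribosome profiling of naive, EIF4A1 KO and EIF4A2 KO cells with DMSO or the mTOR inhibitor PP242. Profiling had 2 DMSO libraries per cell type but only 1 library for each PP242 dose.

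An input library measures the polyadenylated RNA of the lysate before any capture, so it is the baseline against which a pulldown is read. A control siRNA is designed to have no target in the cell and stands in for the transfection itself. Comparing its input with that of cells without siRNA asks how far the mRNA background of the siRNA experiment differs from that of the first pulldown experiment. The design does not separate these: siRNA transfection and anything else that differed between the 2 experiments cannot be told apart. Nothing in the labels says that replicates came from separate cultures, so p-values measure the spread between these libraries, which may be technical.

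The counts are given per Ensembl transcript, and the deposited files do not pair transcripts with genes. The members are therefore described by abundance, by length of the counted region and by their values in other libraries, and only 4 of them by ID. For the same reason the level of EIF4A1 and of LARP1, the markers of the HEK293 line and the gene lists drawn up for interferon, sterol, ATF4 and ribosomal protein genes could not be read, and genotype and siRNA rest on the labels. Depth, summed over 1 transcript per locus, was 13488265 and 14070545 counts in the inputs without siRNA and 16781158 and 12043587 in the siControl inputs, within the range of 11890148 to 17642738 of the 8 input libraries.

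The input mRNA of siControl cells differed widely from that of cells without siRNA. edgeR's quasi-likelihood test called 12438 of 24225 transcripts (51.3%) at a Benjamini-Hochberg adjusted p under 0.05, of which 6145 (25.4%) were higher and 6293 (26.0%) lower after siControl. Most differences were modest, with a median absolute log2 change of 0.84 among the calls and 0.51 among all transcripts tested. By more than 1 log2 unit, 1633 called transcripts (6.74%) rose and 3122 (12.9%) fell, and by more than 2 log2 units 133 rose and 889 fell. The excess of falls over 1 log2 unit lay under a mean of 30 CPM. At 10 to 30 CPM there were 304 called rises and 465 called falls of that size. At 30 to 100 CPM there were 326 and 206, and rises also outnumbered falls above 100 CPM. For all transcripts of 10 CPM or more the counts were 816 rises and 713 falls. Below 10 CPM a transcript may have passed the filter on low counts only through the group where it was high. The libraries of the 2 groups did not overlap for 18803 transcripts (77.6%), which held all 12438 calls. Scaling bears on the split of directions: with library totals in place of trimmed mean scaling (TMM), 3900 calls were higher and 9069 lower, 30.1% higher against 49.4%, as the median log2 change moved by -0.24. The count of calls fell to 7394 without SBP-eIF4A1 input replicate 1 and to 7539 without its replicate 2, and lay between 14304 and 14779 without either siControl library.

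**Figure D1:**
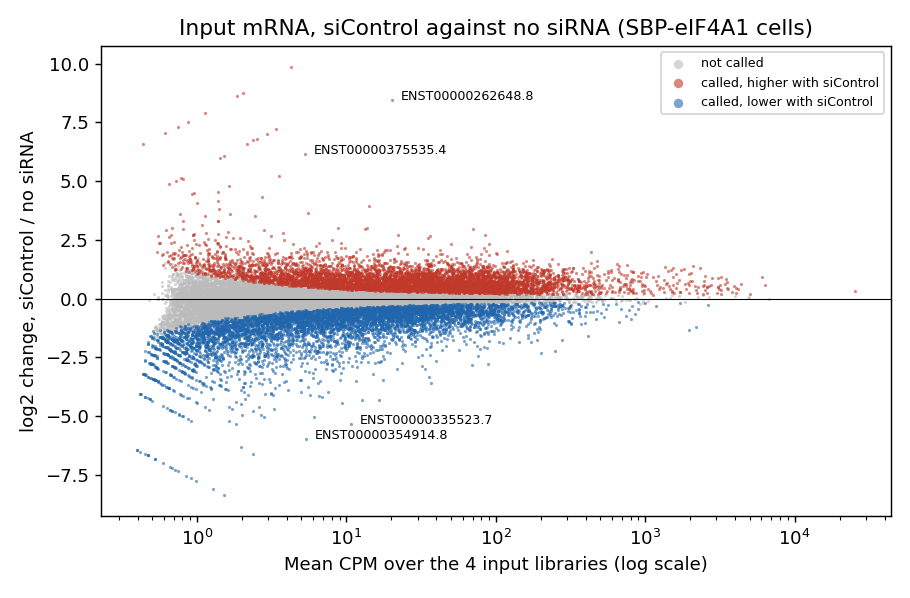
Each point is 1 of 24225 transcripts, with the mean CPM (counts scaled to the library total) over the 4 input libraries on a logarithmic horizontal axis and the edgeR log2 change, siControl over no siRNA, on the vertical axis; red and blue points were called higher and lower after siControl, grey points were not called. The 4 labelled transcripts stand at log2 changes of 8.46, 6.15, -6.00 and -5.33, and the cloud leans downward at low abundance and upward at high abundance.

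Distances between whole libraries place this difference on a scale. For 11543 transcripts with a mean of at least 10 CPM over the 12 RNA libraries, the median absolute log2 difference was 0.069 between the 2 SBP-eIF4A1 inputs and 0.15 between the 2 siControl inputs. Across the 2 groups it was 0.41 to 0.51, and 10.5% to 17.1% of these transcripts differed by more than 1 log2 unit. The 4 library pairs between SBP-eIF4A1 and SBP-eIF4A2 inputs, which have different tagged proteins and no siRNA, were closer, at 0.17 to 0.18, with 1.05% to 1.07% of transcripts over 1 log2 unit. The siControl inputs lay nearest to the siLARP1 inputs, at 0.21 to 0.29. Both groups lay away from untagged naive cells, the SBP-eIF4A1 inputs by 0.35 to 0.37 and the siControl inputs by 0.38 to 0.46, with 7.67% to 8.39% and 9.25% to 14.9% of transcripts over 1 log2 unit. Within the siControl group, replicate 2 stood farther from the inputs without siRNA than replicate 1 did, 0.49 and 0.51 against 0.41 and 0.42. Replicates of 1 group differed by more than counting error, with a chi-square per degree of freedom of 1.39 for the SBP-eIF4A1 inputs and 6.24 for the siControl inputs.

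**Figure D2:**
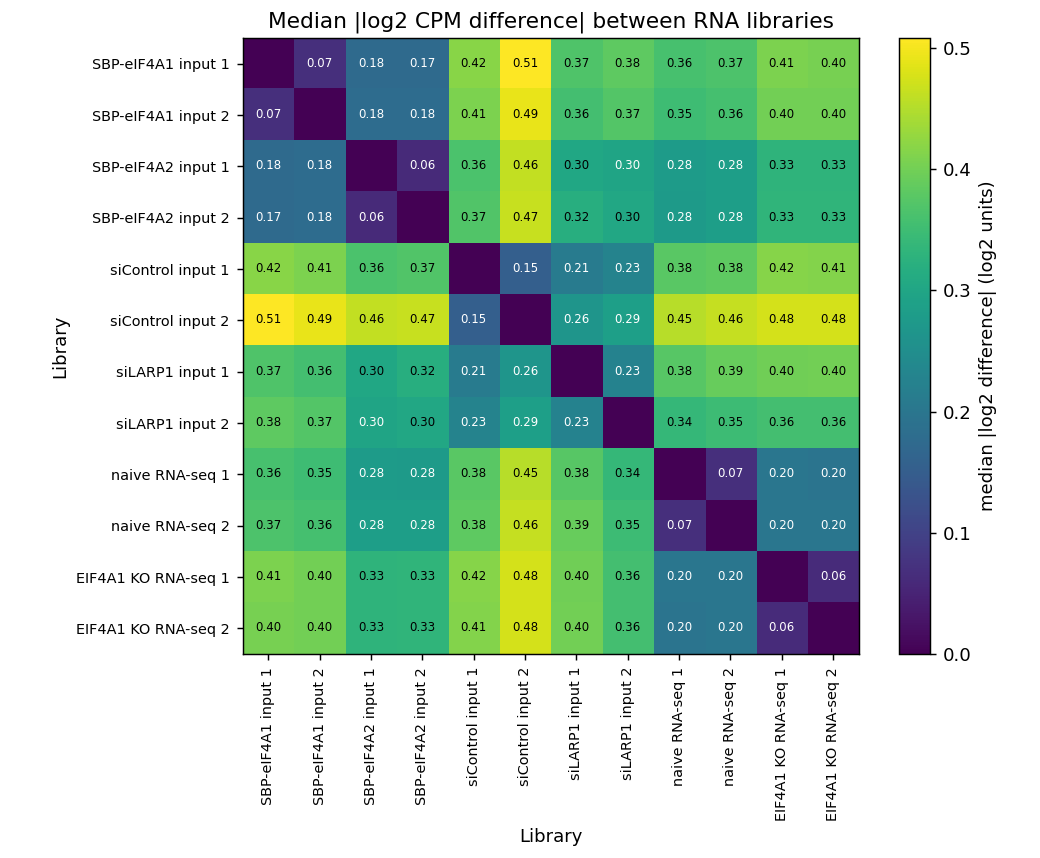
Each cell gives the median absolute log2 CPM difference between 2 RNA libraries over 11543 transcripts with a mean of at least 10 CPM, from dark (0) to bright (0.51). The SBP-eIF4A1 and SBP-eIF4A2 inputs form a dark block at 0.18 or less, and the brightest cells, up to 0.51, join SBP-eIF4A1 inputs with siControl input replicate 2.

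The transcripts furthest apart were near absent on one side. They are the 2 largest rises and the 2 largest falls among the 8104 called transcripts with at least 10 CPM in the higher group and no overlap between groups. ENST00000262648.8 had 2 and 1 counts in the inputs without siRNA and 601 and 416 after siControl, that is 0.14 and 0.068 CPM against 40.4 and 40.4. Its edgeR log2 change was 8.46 (SE 0.24, n = 2 and 2, adjusted p = 2.4e-06 by the quasi-likelihood test), and the ratio of scaled counts was 388 with a 95% counting interval of 132 to 1886. The siControl level lay within the range of the other RNA libraries: the SBP-eIF4A2 inputs held 46.6 and 47.4 CPM, the siLARP1 inputs 62.8 and 44.8, naive cells 29.6 and 27.8, and EIF4A1 KO cells 32.1 and 34.0. The SBP-eIF4A1 inputs without siRNA were thus the only RNA libraries in which ENST00000262648.8 was near 0. In the pulldowns of the same 2 experiments it stood at 0.090 and 0 CPM without siRNA and at 19.1 and 18.6 CPM after siControl. Footprints on this transcript were present in all 12 profiling libraries, between 41.7 and 76.8 CPM.

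ENST00000375535.4 showed the same pattern at a lower level. Its counts were 2 and 2 without siRNA and 194 and 81 after siControl, 0.14 and 0.14 CPM against 13.0 and 7.86 (edgeR log2 change 6.15, SE 0.48, quasi-likelihood adjusted p = 2.9e-05). The ratio was 78.7, with a 95% counting interval of 30.4 to 291. All 8 other RNA libraries lay well above the inputs without siRNA: SBP-eIF4A2 inputs at 10.7 and 11.9 CPM, siLARP1 inputs at 13.2 and 19.3, naive cells at 8.95 and 8.32, and EIF4A1 KO cells at 8.29 and 7.45. The pulldown without siRNA held 0.27 and 0 CPM, and that after siControl 19.9 and 17.4.

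Both of the largest falls were also low after LARP1 siRNA. ENST00000354914.8 had 173 and 132 counts without siRNA and 4 and 0 after siControl, 12.2 and 9.04 CPM against 0.27 and 0. Its edgeR log2 change was -6.00 (SE 0.47, quasi-likelihood adjusted p = 2.9e-05), a ratio of 66.6 with a 95% counting interval of 25.7 to 246. Without siControl input replicate 1 the fitted change was -10.1, as the remaining siControl library held 0 counts. The siLARP1 inputs held 0.45 and 1.52 CPM, while the SBP-eIF4A2 inputs held 13.2 and 14.7, naive cells 14.6 and 14.8, and EIF4A1 KO cells 4.68 and 3.98. So ENST00000354914.8 was low in the 4 siRNA inputs and higher in the 8 RNA libraries without siRNA. It had few footprints in any profiling library, at most 0.94 CPM. ENST00000335523.7 had 299 and 302 counts without siRNA and 10 and 3 after siControl, 21.01 and 20.68 CPM against 0.67 and 0.29 (edgeR log2 change -5.33, SE 0.25, quasi-likelihood adjusted p = 5.7e-06). Its ratio was 40.4, with a 95% counting interval of 23.4 to 76.3. The siLARP1 inputs were again low, at 0.83 and 1.52 CPM. Here the SBP-eIF4A1 inputs without siRNA were the high ones, since SBP-eIF4A2 inputs held 7.10 and 6.13 CPM, naive cells 5.09 and 4.47, and EIF4A1 KO cells 2.54 and 2.47. In the pulldowns it stood at 98.9 and 106 CPM without siRNA and at 4.66 and 2.10 after siControl.

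**Figure D3:**
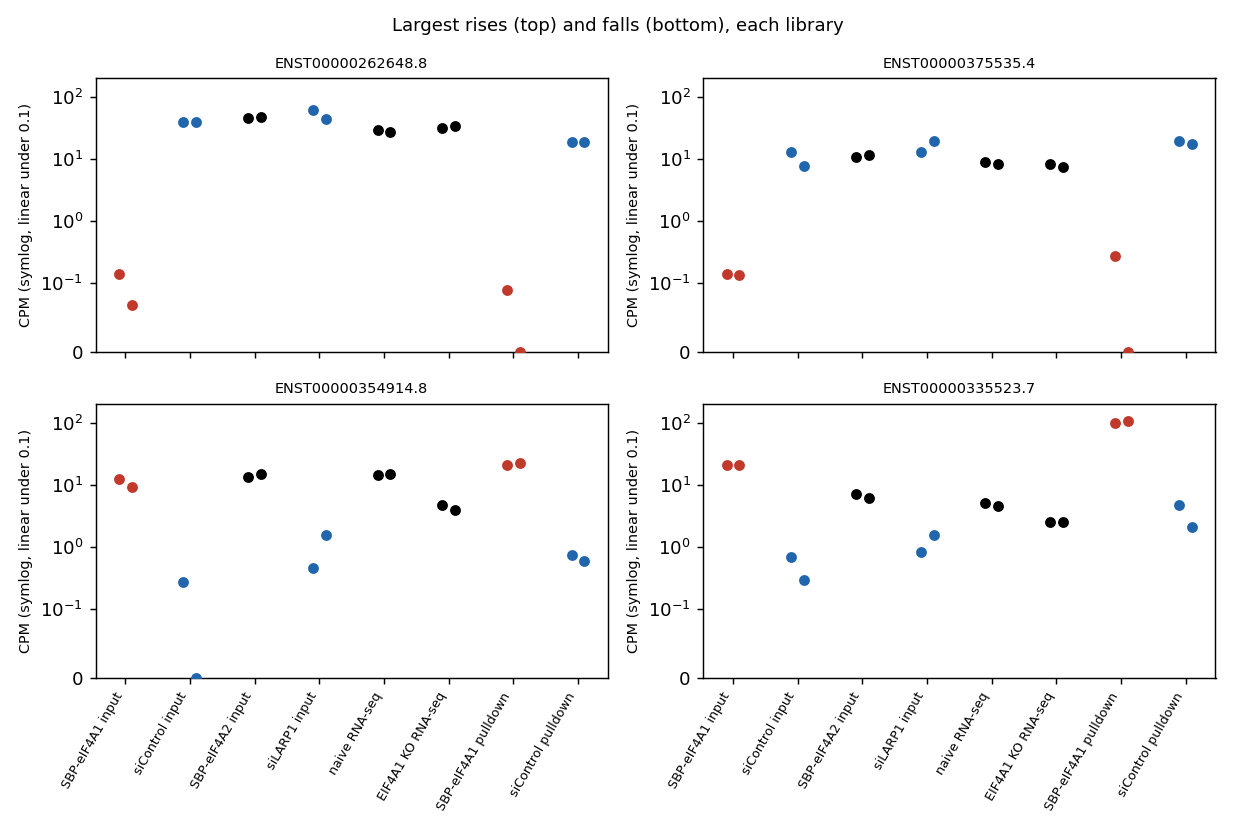
CPM of the 2 transcripts with the largest rises (top) and the 2 with the largest falls (bottom), 1 point per library, on an axis that is logarithmic above 0.1 and linear below. Drawn are all RNA libraries and the SBP-eIF4A1 pulldowns without siRNA and after siControl. Red marks SBP-eIF4A1 libraries without siRNA, blue libraries after siRNA, black the others. ENST00000262648.8 and ENST00000375535.4 were near 0 in the red libraries alone, and both falling transcripts were lower in every blue library than in every red one.

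A search over all groups showed how common such near absence was. Transcripts were counted that had at most 5 counts over the 2 libraries of 1 group and at least 1 CPM in each of the 10 other RNA libraries. There were 23 for the SBP-eIF4A1 inputs without siRNA, 7 for EIF4A1 KO cells and 0 for the siControl inputs, siLARP1 inputs, SBP-eIF4A2 inputs and naive cells. At 5 CPM in the other libraries, 4 and 2 were left. For the 23, the siControl inputs held 28 to 1017 counts over both libraries, with a median of 75. Their rise in the input contrast follows from how they were picked, but the pulldowns were not used to pick them. Of the 23, 21 had at most 5 counts over the 2 SBP-eIF4A1 pulldown libraries without siRNA (median 0, highest 9). None of the 23 was that low after siControl, where the pulldown libraries held 13 to 536 counts (median 60). The low level in SBP-eIF4A1 cells without siRNA was thus seen before and after capture, and was not seen in the siControl libraries that carry the same genotype label. What sets these libraries apart was not tested. Of the 23, 1 pair lay within 10 rows of each other in the files, and the median length was 320 in the deposited unit.

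Fewer transcripts were detected after siControl. The inputs without siRNA each had at least 1 count for 31257 transcripts, and the siControl inputs for 30128 and 29146. Scaled down to 11890148 counts in every library, the expected numbers were 31011 and 30937 without siRNA and 29484 and 29122 after siControl, and the 2 groups did not overlap. The siLARP1 inputs were also low at this depth, at 29833 and 29810. Without siRNA the SBP-eIF4A2 inputs held 31150 and 31225, naive cells 31325 and 31321, and EIF4A1 KO cells 30643 and 30629. All 4 siRNA inputs thus detected fewer transcripts than the 8 RNA libraries without siRNA. With at least 20 counts in the other group, 31 transcripts had 0 counts in both siControl inputs and 11 had 0 counts in both inputs without siRNA. With at least 100 counts in the other group the order was the opposite, with 0 and 2 such transcripts.

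Abundance ordered the change. CPM is not divided by length here, so a class of abundance mixes the number of molecules with their size. Transcripts with a mean of 1 to 3 CPM over the 4 inputs had a median log2 change of -0.26, and 23.9% of 5113 were called lower against 9.00% higher. At 10 to 30 CPM the median was -0.0055, with 28.3% called higher and 29.0% lower of 5225. Transcripts of 100 to 300 CPM had a median of 0.31, with 56.5% called higher and 19.3% lower of 1453. For the 430 transcripts of at least 300 CPM it was 0.41, with 67.7% called higher and 13.3% lower. The 1740 transcripts under 1 CPM had a median of -0.75, but passed the filter on low counts only where 1 group was high enough, so this value is given as a description. In all 4 pairings of a siControl with a no-siRNA library the medians rose in the same order of classes. The difference between transcripts of at least 100 CPM and those of 1 to 3 CPM was 0.60 log2 units under TMM. It was also 0.60 under library totals, since a change of scaling moves all classes by about the same amount. Library totals shift every median down by 0.24, which turns that of the class from 30 to 100 CPM (0.17) below 0, and likewise that of all transcripts of at least 30 CPM (0.22). The 10 most abundant transcripts took 6.64% and 6.68% of the counts without siRNA and 6.99% and 7.10% after siControl.

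Among well-measured transcripts the change varied with the length of the counted region. Of the 6322 transcripts with a mean of at least 30 CPM, 47.8% were called higher and 22.1% lower, with a median log2 change of 0.22. The 49 shortest, under 50 in the deposited unit, had a median of 0.42, with 61.2% called higher and 22.4% lower. Those of length 50 to 100 in the deposited unit had a median of 0.58 (223 transcripts, 69.5% called higher, 8.97% lower). At length 100 to 200 the median was 0.52 (831 transcripts, 68.6% higher, 7.58% lower), and at 200 to 400 it was 0.31. The median declined to 0.14 at 400 to 800 and to 0.019 in the 1670 transcripts of length 800 or more, where 36.3% were called higher and 33.5% lower. Spearman's rho between length and change was -0.28 across these 6322 transcripts, which share the 4 libraries and are not independent. Over all 24225 tested transcripts rho was -0.078. The difference between transcripts under 200 and those of 800 or more was 0.51 log2 units. Under library totals these medians, too, lie 0.24 lower, so that those of length 400 or more fall below 0 and those of shorter transcripts stay above it. In each of the 4 library pairings the order of the classes from 50 upward was the same.

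**Figure D4:**
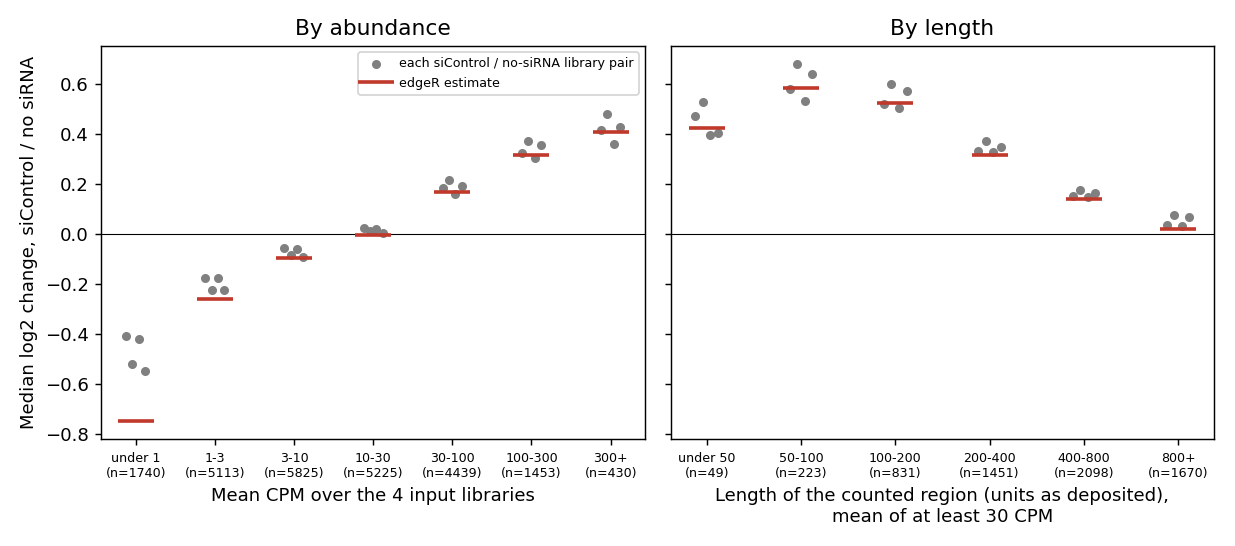
Median log2 change, siControl over no siRNA, by class of mean CPM (left) and by class of length for transcripts of at least 30 CPM (right), with the number of transcripts under each class; red lines are medians of the edgeR estimates and grey points the medians for each of the 4 pairs of a siControl and a no-siRNA library. The medians climb from -0.75 to 0.41 with abundance and decline from 0.58 to 0.019 with length above 50.

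A second input contrast, siLARP1 against SBP-eIF4A2, shares no library with the first. It also sets siRNA against no siRNA, and differs besides in LARP1 siRNA and in the tagged protein. The siControl and siLARP1 inputs share the SBP-eIF4A1 label and 72 h of siRNA, and lay 0.21 to 0.29 apart. Anything else they have in common enters both contrasts, so agreement between the contrasts cannot be assigned to the siRNA. In it edgeR's quasi-likelihood test called 5142 of 24846 transcripts (20.7%), 2838 (11.4%) higher and 2304 (9.27%) lower after siLARP1. Calls over 1 log2 unit made up 2.18% of the transcripts tested in the higher direction and 4.29% in the lower. The number depends on single libraries: it was 988 and 883 without SBP-eIF4A2 input replicate 1 or 2, and 11148 and 12257 without siLARP1 input replicate 1 or 2. Across the 23796 transcripts tested in both, the log2 changes of the 2 contrasts had a Pearson r of 0.68 and a Spearman rho of 0.72, and for 6322 transcripts of at least 30 CPM both were 0.78. These coefficients describe transcripts, which are not replicates, and both contrasts include the trend with abundance described above. With that trend taken out of each contrast, rho was 0.69.

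Calls of the first contrast mostly kept their sign in the second, at a smaller size. They were picked by the first contrast, which by itself makes their change there larger. Over all 23796 transcripts tested in both, the standard deviation of the change was 0.90 in the first contrast and 0.60 in the second. Of 6127 transcripts called higher after siControl and tested in both, 89.9% were also higher after siLARP1, 2421 of them called and 25 called in the opposite direction. Their median log2 change was 0.73 in the first contrast and 0.43 in the second. Of all 23796 transcripts, 49.7% were higher after siLARP1, and of the 6322 of at least 30 CPM, 66.9%. For the 6045 called lower, 88.6% were also lower, with 1697 called and 16 called in the opposite direction, and medians of -0.97 and -0.44. The 2421 shared rises were 39.5% of the rises of the first contrast and 85.8% of those of the second, and the 1697 shared falls 28.1% and 77.7%. By more than 1 log2 unit, 90.2% of 1616 rises and 94.9% of 2875 falls had the same sign.

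**Figure D5:**
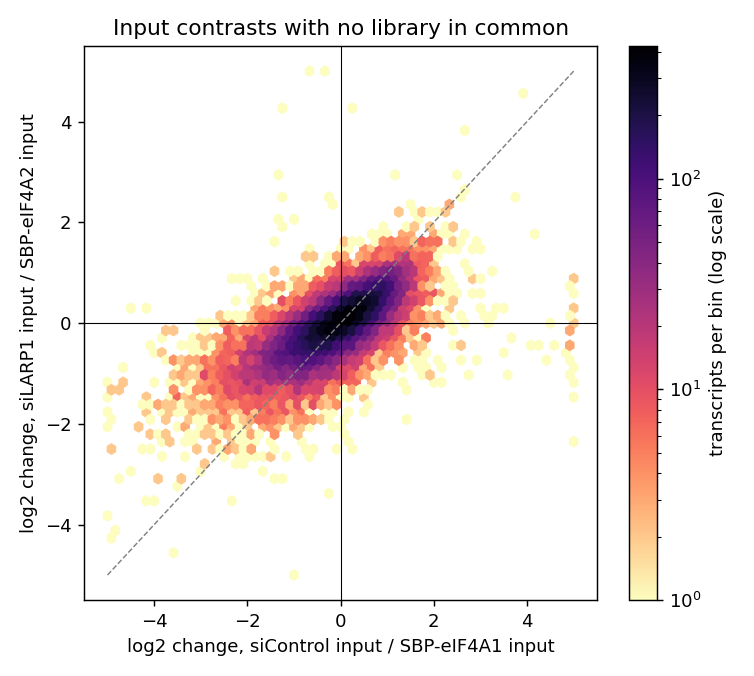
Log2 change of 23796 transcripts in the contrast of siControl with SBP-eIF4A1 inputs (horizontal) and in that of siLARP1 with SBP-eIF4A2 inputs (vertical), as a density of hexagonal bins coloured by the number of transcripts; values beyond 5 are drawn at 5 and the dashed line marks equal change. The cloud runs along a line shallower than the dashed one (Spearman rho 0.72), and for a column of transcripts drawn at the right edge the second change was far smaller than the first, among them ENST00000262648.8 (0.22) and ENST00000375535.4 (0.55).

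Other libraries can be placed on a scale set by the 2 groups. For each called transcript with a change over 1 log2 unit and a mean of at least 10 CPM, a position of 0 was set at the mean log2 CPM without siRNA and of 1 at the siControl mean. For the 816 rises the median position was 0.75 and 0.81 in the siLARP1 inputs, 0.17 and 0.19 in the SBP-eIF4A2 inputs, 0.45 and 0.47 in naive RNA, and 0.44 and 0.45 in EIF4A1 KO RNA. For the 713 falls it was 0.67 and 0.74 in the siLARP1 inputs, 0.23 in both SBP-eIF4A2 inputs, 0.39 and 0.41 in naive RNA and 0.48 in both EIF4A1 KO libraries. The transcripts were picked for a difference between the 2 groups that set 0 and 1. Positions between 0 and 1 in other libraries follow in part from that choice. Naive cells carry no tagged protein and had no siRNA. There, 45.8% and 46.1% of the rises and 39.0% and 40.4% of the falls were nearer to the siControl level. Of the 11543 transcripts of at least 10 CPM, 1853 were higher in all 4 siRNA inputs than in any of the 8 other RNA libraries and 975 were lower, but by more than 1 log2 unit only 13 and 4 were. By the same measure 8 stood above and 24 below every other library in the SBP-eIF4A1 inputs alone, and 0 and 6 in the siControl inputs alone. In EIF4A1 KO RNA alone 11 stood above and 27 below.

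The 2 input contrasts were also tested against each other in a fit of the 8 inputs. The change differed for 1700 of 25345 transcripts (6.71%) by edgeR's quasi-likelihood test. The signed log2 change was higher in the siControl contrast for 779 and lower for 921. A transcript that fell further in the siControl contrast is among the 921. The median absolute difference among them was 1.03 log2 units. This count was 361 without either SBP-eIF4A1 input, 404 and 349 without SBP-eIF4A2 input replicate 1 or 2, 933 without siControl input replicate 2, and 3383 and 3699 without siLARP1 input replicate 1 or 2. ENST00000262648.8 changed by 0.22 in the second contrast (SE 0.16, edgeR adjusted p = 0.36) and differed between contrasts by 8.25. ENST00000375535.4 changed by 0.55 (SE 0.20, edgeR adjusted p = 0.087) and differed by 5.61. The falling ENST00000354914.8 and ENST00000335523.7 fell in both contrasts, by 3.82 and 2.47 log2 units in the second.

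After capture the picture was less alike. Between the siControl and no-siRNA pulldowns edgeR's quasi-likelihood test called 16657 of 25436 transcripts (65.5%), 8506 (33.4%) higher and 8151 (32.0%) lower. Calls over 1 log2 unit made up 22.0% higher and 20.1% lower. These libraries come from the same experiments as the inputs but share no library with them. Across 23744 transcripts Pearson's r between input and pulldown change was 0.40 and Spearman's rho 0.30, and across the 6322 transcripts of at least 30 CPM they were 0.16 and 0.11. Of 6100 transcripts called higher in the input, 60.2% were also higher in the pulldown, beside 50.4% of all 23744 transcripts. Of the 6100, 2782 were called higher there and 1665 lower. Of 6170 called lower, 65.2% were also lower, with 3048 called so and 1377 called higher. Larger input changes were carried over more often, at 70.0% of 1589 rises and 73.5% of 2999 falls over 1 log2 unit. Transcripts that rose or fell in the input were thus called in both directions in the pulldown.

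What the changing transcripts share was read from libraries outside the contrast, for the 6322 transcripts of at least 30 CPM. They were split into 5 equal groups by the log2 ratio of footprints to RNA in naive cells, a measure of translation per mRNA. In the lowest group the median input change was 0.014, with 35.0% called higher and 33.0% lower, and in the highest it was 0.31, with 54.2% higher and 16.6% lower (rho 0.18). The highest group was also shorter, with a median length of 361 against 683 in the lowest. Within length classes rho was 0.068 under 200, 0.19 from 200 to under 800 and 0.077 at 800 or more. So well-translated mRNAs had somewhat higher values after siControl, and rho was highest among transcripts of middle length.

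Capture by the other paralogue, eIF4A2, was related in the opposite direction. It was measured as pulldown over input in SBP-eIF4A2 cells, in libraries that enter neither group. Transcripts in the group with least capture had a median input change of 0.36 (58.7% called higher, 14.8% lower), and those in the group with most capture 0.026 (34.4% higher, 31.9% lower). Length does not run along with this order in the way it did for translation, since the median length was 650 in the first and 412 in the last group, and shorter transcripts rose more. Within the 1670 transcripts of length 800 or more rho was -0.39, and the median input change went from 0.38 in the least captured group to -0.40 in the most captured. From 200 to under 800 rho was -0.25, and under 200 it was -0.017. For long mRNAs, those that eIF4A2 captured best were lower after siControl and those it captured least were higher. The response of footprints to PP242 had little relation to the input change, with rho between -0.071 and 0.061 for the 2 doses (1 and 10 µM, 30 min) in naive and EIF4A2 KO cells, and the RNA change of EIF4A1 KO cells had a rho of -0.033.

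PP242 blocks mTOR, which controls the translation of mRNAs with a 5′ terminal oligopyrimidine (TOP) tract, and LARP1 binds such mRNAs. With no gene names, a set was formed from footprints alone: 143 transcripts of at least 30 CPM whose footprints fell by at least 1 log2 unit at both doses in naive and in EIF4A2 KO cells. Each of these falls was read from 1 PP242 library. The set was chosen after these data had been seen and is not named as TOP mRNAs here. Its median log2 input change after siControl was 0.32, with 102 called higher (71.3%) and 20 lower (14.0%), beside 47.8% and 22.1% of all transcripts of at least 30 CPM. The set took 20.5% and 20.9% of all counts in the inputs without siRNA and 22.7% and 23.6% in the siControl inputs, and the groups did not overlap. It is made of short, abundant transcripts, with a median length of 151 and a median of 809 and 863 CPM without siRNA. Among the 430 transcripts of at least 300 CPM, 67.7% were called higher and 13.3% lower, with a median change of 0.41. The share of rises in the set was thus near that of transcripts of high abundance. The 1010 other transcripts of at least 30 CPM with length under 200 had a higher median, 0.56, with 67.7% called higher and 8.22% lower. They were far less abundant, with a median of 44.3 and 45.3 CPM without siRNA. Their share of all counts was 8.10% and 8.20% without siRNA and 10.3% and 10.4% after siControl. In the contrast of siLARP1 with SBP-eIF4A2 inputs the 143 transcripts had a median of 0.015, with 15 called higher (10.5%) and 27 lower (18.9%). Of all 6322 transcripts of at least 30 CPM, 25.01% were called higher and 6.07% lower there, with a median of 0.17, and the other short transcripts had a median of 0.32. In the siLARP1 inputs the set took 17.3% and 18.4% of the counts, the lowest of the 12 RNA libraries. In the pulldowns the set had a median log2 change of -2.17, siControl against no siRNA, although its input level was higher. The other short transcripts had -1.02 there.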

How the data were processed

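The deposited files hold, per library, raw counts per versioned Ensembl transcript, and a length whose unit is not given, used only to rank and class transcripts. Per the submitters' processing notes the authors used CASAVA 1.8 and STAR 2.7.0a with hg38. The counting tool is not given in the sources used here. Of 227264 transcripts listed, 94734 had a count. Transcripts with equal counts in all 31 files were collapsed to 77343, and 1 per locus was kept: by total count, dropping those whose log2 CPM (pseudocount 0.5) correlated at 0.9 or more with a kept one within 10 distinct transcripts. That left 35499. A locus can still be split, or a neighbour lost.

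Each contrast was fitted on its own 4 libraries with edgeR 4.0.16 (R 4.3.3): TMM, filterByExpr (minimum count 10, minimum total 15), glmQLFit and glmQLFTest, two-sided, Benjamini-Hochberg adjusted, called under 0.05. limma 3.58.1 and DESeq2 1.42.0 served edgeR and an alternative test. Scripts were tested on simulated data. Printed CPM of RNA libraries is TMM-scaled over the 12 RNA libraries, that of other assays within the assay. Counting intervals (95%) are exact and cover counting error only.

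Transcripts named are the 2 largest rises and 2 largest falls among calls with at least 10 CPM in the higher group and no overlap. Members, lists, sets and tests were chosen with earlier results of these data known. Neither gene lists nor sequences were matched to transcripts, so list medians were not computed. Alternatives covered scaling, filter, test, features, length and abundance trends, libraries in the fit, the replicate block and leaving out libraries.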

Additional observations from a re-analysis of the deposited data

Results flagged for a closer look

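Results are listed here because the change differed between the 2 input contrasts, siControl against SBP-eIF4A1 and siLARP1 against SBP-eIF4A2, by a test of the difference in 1 edgeR fit of the 8 inputs. That held for 1700 transcripts. For ENST00000262648.8 the difference of the log2 changes was 8.25 (SE 0.40, quasi-likelihood adjusted p = 9.6e-08), and all 4 siControl and siLARP1 libraries were above both SBP-eIF4A1 inputs. For ENST00000375535.4 it was 5.61 (SE 0.57, quasi-likelihood adjusted p = 9.5e-05). For ENST00000335523.7, which fell in both contrasts, it was -2.86 (SE 0.50, quasi-likelihood adjusted p = 0.0052). The second contrast also differs in the siRNA target and in the tagged protein, so what the differences follow cannot be told apart.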

How the results depend on the processing

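All 4 named transcripts kept their direction and their call under every alternative in which they were fitted, although ENST00000354914.8 moved from -6.00 to -10.1 without siControl input replicate 1. The count of calls in the siControl input contrast (12438) lay between 8760 (DESeq2's Wald test) and 12969 under 8 alternatives. It was 34144 over all distinct transcripts, 7198 with a mean of at least 10 CPM (added after seeing the data), and 7394 to 14779 with 1 library left out. The siLARP1 contrast (5142) gave 13522, 2957 and 883 to 12257 in the same order, the pulldown contrast (16657) 44675, 9497 and 12419 to 18684. The difference of the input contrasts (1700) gave 5040 over all distinct transcripts and 349 to 3699 with 1 library left out. With 1 library left out, the counts of both input contrasts were lower than in full when an input without siRNA was removed and higher when a siRNA input was removed. There a lone library is assumed to vary like the other group. The numbers of transcripts tested also differ. For the siControl contrast they were 24225 in the main fit, 62257 over all distinct transcripts and 11348 at 10 CPM or more. For the siLARP1 contrast they were 24846, 63153 and 11672, and for the pulldowns 25436, 64030 and 12188. The difference of the input contrasts was tested for 25345 and, over all distinct transcripts, 63945. The lower counts of the 3 contrasts at 10 CPM or more are thus higher shares of the transcripts tested. With library totals, rises were 30.1% of the calls in the siControl contrast, 32.8% (main 55.2%) in the siLARP1 contrast, 60.5% (main 51.1%) in the pulldowns and 27.5% of the differences. With the replicate block the contrasts gave 12633, 6343 and 16675 calls and the difference 1441, and 12156 of the 12633 were also called without the block. Same-numbered libraries deviated together with r = 0.061, 0.028 and -0.038 in the 3 contrasts, and with r = 0.20, 0.056 and -0.18 for transcripts of at least 5 log2 CPM. With only 2 pairs each, the numbers were not taken to pair the libraries. The difference by abundance was 0.016 with the abundance trend removed (main 0.60), by construction. The difference by length was 0.33 with the length trend removed (main 0.51). That trend was fitted over all tested transcripts (rho -0.078), while the difference is among those of at least 30 CPM, where it was only partly removed. The PP242 set lay 0.18 to 0.46 below other short transcripts under all alternatives. Spearman's rho between the input contrasts was 0.53 to 0.78. List medians were not run. Low counts limit all values under 1 CPM.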
